A study of Rattus norvegicus with 8 samples.

Results

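The genes described here encode the mitochondrial respiratory chain and the mitochondrial carriers, measured in PC12 cells with and without forskolin. Members were all probe sets whose single annotated gene symbol starts with Nduf, with Sdh followed by a to d, with Uqcr, with Cox followed by 4 to 8, with Atp5 or with Slc25. The rule used names only and no measured value. It found 127 of the 13810 genes that the chips name by a single symbol, on 153 of 31142 probe sets, of which 127 probe sets (118 genes) were on chip A and 26 (23 genes) on chip B. A further 9 probe sets on chip A carried a member symbol together with another symbol and were left out.

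PC12 is a rat line grown from a pheochromocytoma, a tumour of the chromaffin cells of the adrenal medulla, and forskolin activates adenylyl cyclase, which makes cyclic AMP. Each of the 2 chips, A and B, was hybridised with 2 arrays of forskolin RNA and 2 arrays of RNA from cells that the labels describe as without forskolin; the series title calls the control inactive. The dose, how long the cells were exposed, and what the controls received are not stated in the labels. The labels do not say whether replicates came from separate cultures, so every p-value here reflects the spread between these arrays alone, and that spread may be technical.

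The respiratory chain lies in the inner mitochondrial membrane. Complexes I and II feed electrons from NADH and succinate to coenzyme Q, complex III passes them to cytochrome c, complex IV passes them to oxygen, and complex V, the ATP synthase, uses the resulting proton gradient to make ATP. Carriers of the SLC25 family move nucleotides, phosphate, amino acids, metal ions and cofactors across the same membrane. Cyclic AMP activates protein kinase A, which phosphorylates CREB, a factor that binds the cyclic AMP response element TGACGTCA in promoters.

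Promoter windows from RefSeq (assembly GRCr8), which run from 250 bases before to 50 bases after the annotated start, were matched to 115 of the 127 member genes. The 5 member windows that hold the full element TGACGTCA are shown because the 2 genes called higher with forskolin are among them. This display was chosen with the calls known, so it gives no test of a link between element and response. The Slc25a33 call was not stable to leaving out single arrays, and that gene was tested only because of its forskolin arrays, as given below. Each is printed 5′ to 3′ in the direction of the gene, from 170 bases before to 20 bases after the start, with the element in capitals. The element reads the same on both strands.
Slc25a25, chr3:36116562-36116751, - strand: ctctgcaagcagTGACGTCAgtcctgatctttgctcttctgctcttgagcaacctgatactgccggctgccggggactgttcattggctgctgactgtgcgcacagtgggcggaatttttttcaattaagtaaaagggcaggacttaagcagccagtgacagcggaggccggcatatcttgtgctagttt
Slc25a33, chr5:165502954-165503143, - strand: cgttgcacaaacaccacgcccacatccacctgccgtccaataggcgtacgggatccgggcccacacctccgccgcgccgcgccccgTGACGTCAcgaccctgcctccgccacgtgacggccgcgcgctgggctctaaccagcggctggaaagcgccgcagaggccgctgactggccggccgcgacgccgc
Cox8a, chr1:213833604-213833793, - strand: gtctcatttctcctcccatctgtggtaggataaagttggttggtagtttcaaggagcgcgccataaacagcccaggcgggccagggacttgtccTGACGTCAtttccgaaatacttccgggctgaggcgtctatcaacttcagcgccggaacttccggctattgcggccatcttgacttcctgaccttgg
Ndufb2, chr4:69334137-69334326, + strand: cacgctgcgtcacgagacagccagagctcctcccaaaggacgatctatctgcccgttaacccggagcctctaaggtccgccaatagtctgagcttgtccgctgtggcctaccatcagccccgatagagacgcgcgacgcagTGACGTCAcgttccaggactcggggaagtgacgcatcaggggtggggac
Sdhb, chr5:158547764-158547953, + strand: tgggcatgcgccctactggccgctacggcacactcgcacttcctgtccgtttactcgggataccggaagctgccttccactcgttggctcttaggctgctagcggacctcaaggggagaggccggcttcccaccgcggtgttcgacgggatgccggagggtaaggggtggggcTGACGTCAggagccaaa
The element begins 158 bases before the start in Slc25a25, 84 before it in Slc25a33, 76 before it in Cox8a and 29 before it in Ndufb2. In Sdhb it begins at base 4 after the start. The full element was found in 1.91% of 27457 windows of this length, a single window for each gene. For members and background alike this was the first window listed for the gene, out of 33469 listed. Other starts of a gene were not searched. A match is a description of these letters and not a measured binding site.

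The clearest forskolin response among the members was in the carrier Slc25a25, a calcium-regulated exchanger of ATP-magnesium for phosphate. Its probe set measured 7.44 and 7.32 (log2) on the arrays without forskolin and 7.99 and 7.86 on those with it. The 2 groups did not overlap. It rose by 0.55 ± 0.06 (log2, moderated SE, n = 2 arrays a group), or 1.46-fold, with a 95% interval of 0.40 to 0.69 (limma, adjusted p = 0.00182). Leaving out any 1 of the 4 arrays gave 0.48 to 0.62, and the call held each time.

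Slc25a33, a carrier of pyrimidine nucleotides, was the other member that rose. It measured 6.92 and 6.88 without forskolin and 7.14 and 7.16 with it, again with no overlap. The rise was 0.25 ± 0.05 (log2, SE, n = 2), or 1.19-fold (limma, adjusted p = 0.0305). This probe set is dim: its mean level of 7.03 lies just above the lowest mean level that the brightness filter kept on chip A (7.02), and without forskolin it lies below it, so it was tested only because of its forskolin arrays. The call was lost without forskolin replicate 1, forskolin replicate 2 or no forskolin replicate 2 (limma adjusted p = 0.106, 0.147 and 0.0735). The files give no background level, so how far these dim signals stand above it was not tested.

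**Figure D1:**
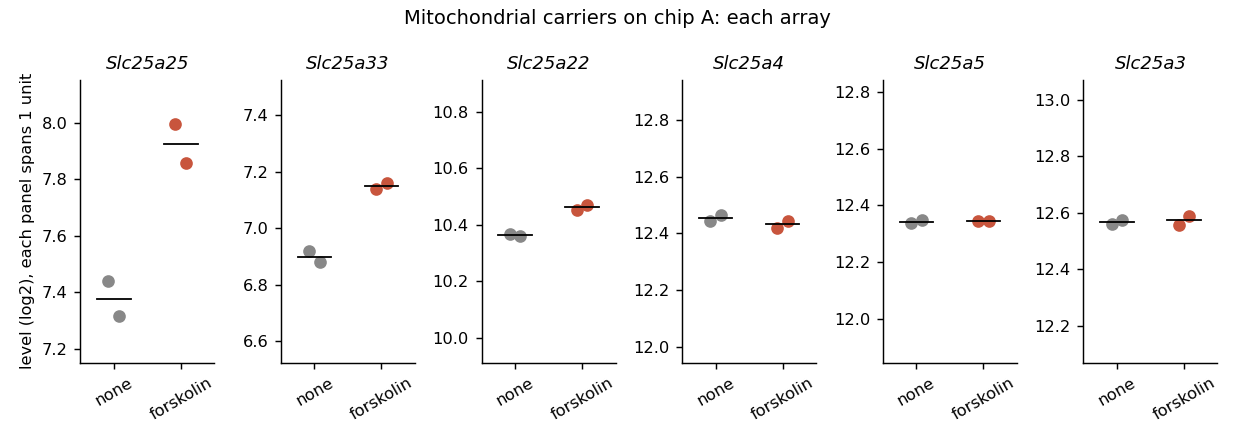
Levels (log2) of 6 carriers on the 4 arrays of chip A, grey without forskolin and red with it; points are arrays, lines are means of 2, and every panel spans 1 log2 unit. Slc25a25 and Slc25a33 moved up as a pair of arrays, while the adenine nucleotide translocases Slc25a4 and Slc25a5 and the phosphate carrier Slc25a3 differed by 0.02 or less in either direction.

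Chip A had 116 tested member probe sets and chip B had 25. These 2 were the only calls (limma), and 0 members were called lower on either chip. On chip A, 3.30% of all tested probe sets were called, 2.03% higher and 1.26% lower. On chip B, 0.159% were called, 0.150% higher and 0.00935% lower. Among other probe sets of matched brightness, the called shares on chip A were 3.67% for all members' levels, 3.53% for the chain's and 3.47% for the carriers', and on chip B they were 0.273%, 0.266% and 0.262%. The member counts are too small to read against these shares. At an unadjusted p under 0.05 (limma), 3 members were higher and 20 lower on chip A, and 1 was higher and 1 lower on chip B. Over all tested probe sets of chip A, 7.10% were higher and 10.3% lower at that p. On chip B these shares were 1.64% and 3.33%. The number of lower calls on chip A depends on the scaling of the arrays: it was 5 with median centring and 1 with quantile normalization. Calls over the whole chip rose under these scalings too, from 366 to 577 and 472. Among others of the chain's brightness, 1.09% were called lower on the authors' scale, 3.16% with median centring and 1.80% with quantile normalization.

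Complex I is the largest group, with 37 probe sets on chip A, of which 36 were tested. None was called. The median change was -0.045 (log2), with 33 of 36 below 0 and a range of -0.12 to 0.04; it was -0.023 without forskolin replicate 1. The core iron-sulfur subunit Ndufs1 measured 9.84 and 9.89 without forskolin and 9.74 and 9.77 with it (-0.11, limma adjusted p = 0.196). Ndufv1, the core subunit that binds NADH, measured 10.86 and 10.85 without forskolin and 10.83 and 10.87 with it, so its groups overlapped. The accessory subunits Ndufb1 and Ndufa2 measured -0.12 each (limma adjusted p = 0.0928 and 0.135). Ndufb1 gave 11.21 and 11.20 without forskolin against 11.09 and 11.08 with it, a gap larger than the spread within either pair. Ndufa1, an accessory subunit and the brightest of this group, measured -0.09 (0.204). Ndufa4, named for complex I but now placed in complex IV, measured -0.03.

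Complex II, which is also an enzyme of the citric acid cycle, had 5 tested probe sets for its 4 subunits and no call. The flavoprotein Sdha measured 10.67 and 10.59 without forskolin and 10.51 and 10.67 with it. The iron-sulfur subunit Sdhb, whose promoter window holds the full element shown above, measured 10.39 and 10.35 without forskolin and 10.28 and 10.36 with it (-0.05, limma adjusted p = 0.607). The membrane anchor Sdhd measured -0.08 and -0.04 on its 2 probe sets, and Sdhc -0.0029. The group median was -0.04. It was 0.01 without forskolin replicate 1, -0.09 without forskolin replicate 2, and -0.02 and -0.07 without no forskolin replicates 1 and 2, so its direction rests on forskolin replicate 1.

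Complex III had 7 tested probe sets, no call and a median of -0.02. The median was 0.011 without forskolin replicate 1, -0.057 without forskolin replicate 2, -0.0031 and -0.031 without no forskolin replicates 1 and 2, and -0.0075 with quantile normalization. Its core subunits Uqcrc1 (-0.0052), Uqcrc2 (-0.02) and the Rieske iron-sulfur protein Uqcrfs1 (-0.0055) had overlapping groups on chip A. A second Uqcrc2 probe set, on chip B, measured 9.76 and 9.82 without forskolin and 9.70 and 9.68 with it. Its change was -0.11 (limma adjusted p = 0.993). Both forskolin arrays lay below both controls there, as in 22.2% of all tested probe sets on chip B. The small subunit Uqcr11 measured 10.60 and 10.62 without forskolin and 10.53 and 10.51 with it (-0.09, limma adjusted p = 0.242). Uqcrq measured -0.05, Uqcrh -0.04 and Uqcr10 0.0081.

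Complex IV, cytochrome c oxidase, had a median of -0.08 (log2) over 13 tested probe sets, and no call. The median was -0.05 without forskolin replicate 1. Membership went by symbol, so the 13 include Cox6c-ps1, whose symbol marks a pseudogene and whose change was the highest of the group (0.07). In 9 of the 13 (69.2%) both forskolin arrays lay below both control arrays, against 28.0% of all tested probe sets on chip A and 35.0% of others of the chain's brightness. Those others were dimmer than complex IV, with a median level of 10.45 (log2) against 11.83. Cox7b measured 11.81 and 11.84 without forskolin and 11.69 and 11.71 with it. Its change of -0.12 had the smallest adjusted p of the chain (limma, 0.0742), and it was called lower with quantile normalization (0.0342) and with median centring (0.0232). Cox7a2l, which joins complexes into supercomplexes, measured -0.11, and the subunits Cox6b1 and Cox6a1 measured -0.09 and -0.08 (limma adjusted p = 0.155, 0.141 and 0.178). Cox8a, with the full element in its window, measured 12.60 and 12.58 without forskolin and 12.52 and 12.54 with it (-0.06, 0.282). Cox4i1 measured 0.03, and Cox5a, on a dim probe set, -0.0093. The dim tissue-restricted forms Cox6a2, Cox6b2 and Cox8b lay below the filter and were not tested. Other isoforms were tested and not called, and are named here after their values were seen. Cox4i2 was bright, at a mean level of 11.98, and measured 0.05. Cox7a1 was dimmer, at 7.46, and measured -0.09.

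Complex V had 17 tested probe sets, no call and a median of -0.04. The median was -0.022 without forskolin replicate 1 and -0.016 with quantile normalization. The catalytic subunits Atp5f1a and Atp5f1b measured 4.0e-04 and -0.04. Atp5po, the stalk subunit that ties the catalytic head to the membrane part, measured 11.41 and 11.38 without forskolin and 11.28 and 11.26 with it (-0.12, limma adjusted p = 0.0928). Its chip B probe set measured -0.02. The membrane part subunits Atp5mf (-0.12), Atp5me (-0.11) and Atp5mk (-0.09) were not called (limma adjusted p = 0.0928, 0.214 and 0.205), and a second Atp5me probe set measured 0.04. Atp5mc3, a form of the rotor subunit c, measured -0.0043. The inhibitor Atp5if1 measured -0.02 on its only tested probe set.

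**Figure D2:**
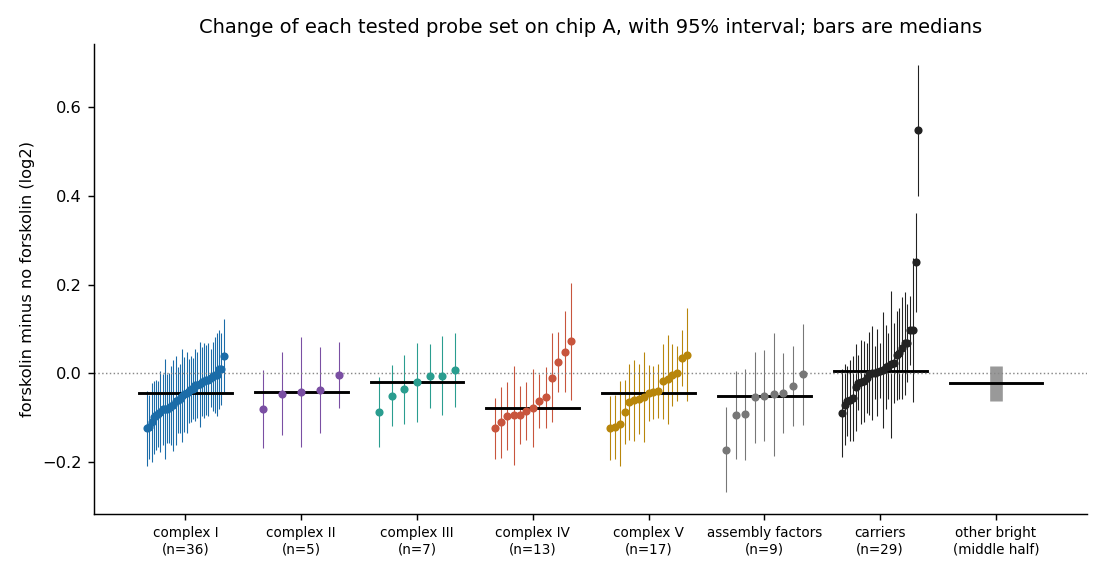
Forskolin minus no forskolin (log2) for each tested probe set of chip A, by complex, with limma's 95% interval; black bars are medians, and the grey bar spans the 25th to 75th percentile of 2662 other probe sets of the chain's brightness. All 78 chain intervals lie inside 1.2-fold in either direction, and the points of Slc25a25 (0.55) and Slc25a33 (0.25) are the highest.

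Set beside other probe sets of matched brightness, the chain differed from them by a few hundredths of a log2 unit. Over complexes I to V on chip A the median was -0.045 (log2, 78 tested of 84 probe sets), against -0.021 over 2662 other tested probe sets between 9.82 and 12.15 (the 10th to 90th percentile of the chain's levels), and -0.0082 over all tested probe sets. Of the chain, 87.2% lay below 0, against 64.7% of those others. The match is a window only: the chain's median level was 11.09 (log2), and that of the others was 10.45. Over all tested probe sets the median change was -0.017 in the step of levels around 10.25 and -0.028 in that around 11.25. How much of the difference goes with this gap in brightness was not tested. Both forskolin arrays lay below both controls in 41 of 78 chain probe sets (52.6%), against 28.0% of all tested probe sets and 35.0% of the others of matched brightness. They lay above both controls in 2 chain probe sets (2.56%), against 20.4% of all tested probe sets and 14.4% of the matched others. The sign of the chain's median was the same under both other scalings, at -0.048 against -0.024 for the matched others with median centring and -0.035 against -0.013 with quantile normalization. No set test was made, and these counts treat probe sets of shared arrays as if they were separate. All 78 intervals lay within 1.2-fold in either direction, against 95.8% of the matched others and 92.4% of all tested probe sets, so a larger change lies outside the interval of each tested chain probe set.

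The difference between the chain and the matched others, -0.024, ranged from -0.033 to -0.014 with each array left out in turn, and was smallest without forskolin replicate 1. The chain's median deviation from the mean of the 4 arrays was 0.019 and 0.023 for no forskolin replicates 1 and 2, and -0.044 and -0.0027 for forskolin replicates 1 and 2. The other probe sets of the chain's brightness gave -1.0e-04, 0.022, -0.023 and 0.0030 in the same order. Forskolin replicate 1 was the lowest array for the chain and for these others alike. Without it the chain's median was -0.021 and that of the others -0.0071, with 69.2% and 54.3% below 0. Why this array was lower was not tested.

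**Figure D3:**
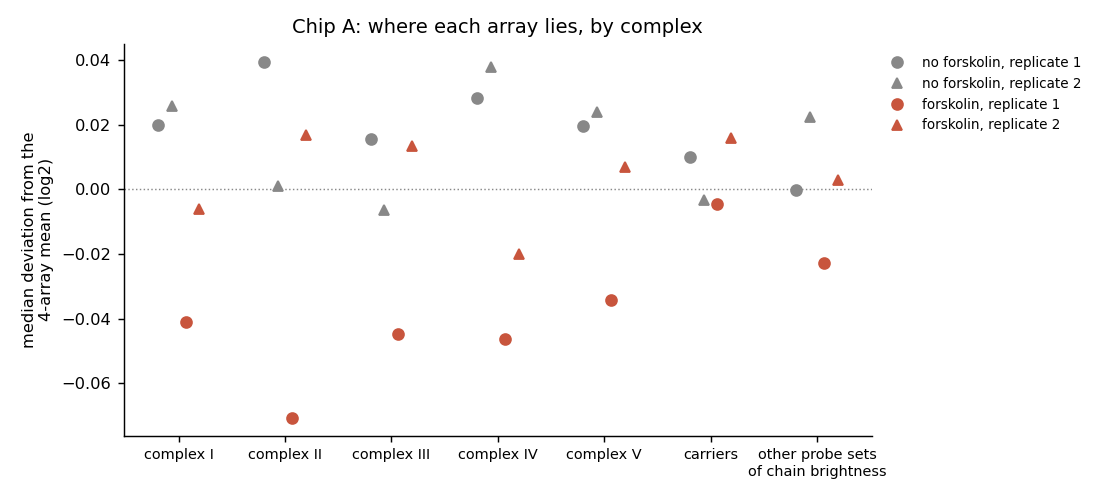
Median deviation (log2) of each chip A array from the mean of the 4 arrays, by complex, for the carriers and for other probe sets of the chain's brightness; circles are replicate 1, triangles replicate 2, grey without and red with forskolin. Forskolin replicate 1 is lowest in each complex, and in complexes II and III the other forskolin array lies between the 2 controls.

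Of 33 carrier probe sets on chip A 29 were tested, with a median of 0.0065 (log2) and 18 above 0; the median was -0.0083 over 10037 others of their own brightness. The sign of this small median is not settled: it was -0.0086 when forskolin replicate 2 was left out, -0.0014 when no forskolin replicate 2 was, 0.022 when forskolin replicate 1 was, and -6.0e-04 with a filter at the 50th percentile. The difference between carriers and chain was not tested. The brightest carriers are those that serve the ATP synthase directly. The adenine nucleotide translocases, which exchange ADP for ATP, measured -0.02 (Slc25a4) and 0.0021 (Slc25a5), and the phosphate carrier Slc25a3 measured 12.56 and 12.58 without forskolin and 12.56 and 12.59 with it. Their 95% intervals of -0.08 to 0.04, -0.06 to 0.06 and -0.05 to 0.07 (log2) leave room for only small changes. The glutamate carrier Slc25a22 measured 10.37 and 10.36 without forskolin and 10.45 and 10.47 with it (0.10, limma adjusted p = 0.194), and Slc25a17, a carrier of peroxisomes, measured -0.09 (0.336).

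The relatives of the 2 carriers that rose gave smaller values without a call. They were picked after their values were seen, apart from those that the naming rule had chosen. Slc25a23, Slc25a24 and Slc25a41 carry ATP-magnesium and phosphate like Slc25a25. Slc25a23 measured 0.01 on chip A and 0.12 and 0.09 on chip B, Slc25a24 measured -0.13 and Slc25a41 -0.12, the last 2 on chip B. Slc25a36, which carries pyrimidine nucleotides like Slc25a33, measured 0.07 on chip A and 0.05 on chip B. Differences between these genes were not tested.

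Chip B held 26 member probe sets, 18 of them carriers, and 25 were tested with no call. Both forskolin arrays lay above both controls in 6 of these and below them in 4, against 10.4% and 22.2% of all tested probe sets on the chip. Its standard errors were larger, with a median of 0.08 (log2) for members against 0.04 on chip A, and only 9 of 25 members had an interval inside 1.2-fold. The highest was Slc25a37, or mitoferrin-1, which brings iron into mitochondria: it measured 7.85 and 7.93 without forskolin and 8.07 and 8.30 with it (0.29 ± 0.10, log2, SE, n = 2, limma adjusted p = 0.943, with an interval of 0.06 to 0.53). Its groups did not overlap, with an SD of 0.16 between its forskolin arrays and 0.06 between its controls. Its relative Slc25a28, chosen after its value was seen, measured 0.06. The carrier median on chip B was 0.048, against -0.029 over others of their brightness, and it was -0.019 without no forskolin replicate 1. The chain had only 5 tested probe sets on chip B, with a median of -0.022, against -0.029 over others of the chain's brightness. Of these 5, 3 lay below 0 (60.0%), against 63.3% of those others. The chain thus did not lie below its matched others there, though 5 probe sets are few.

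**Figure D4:**
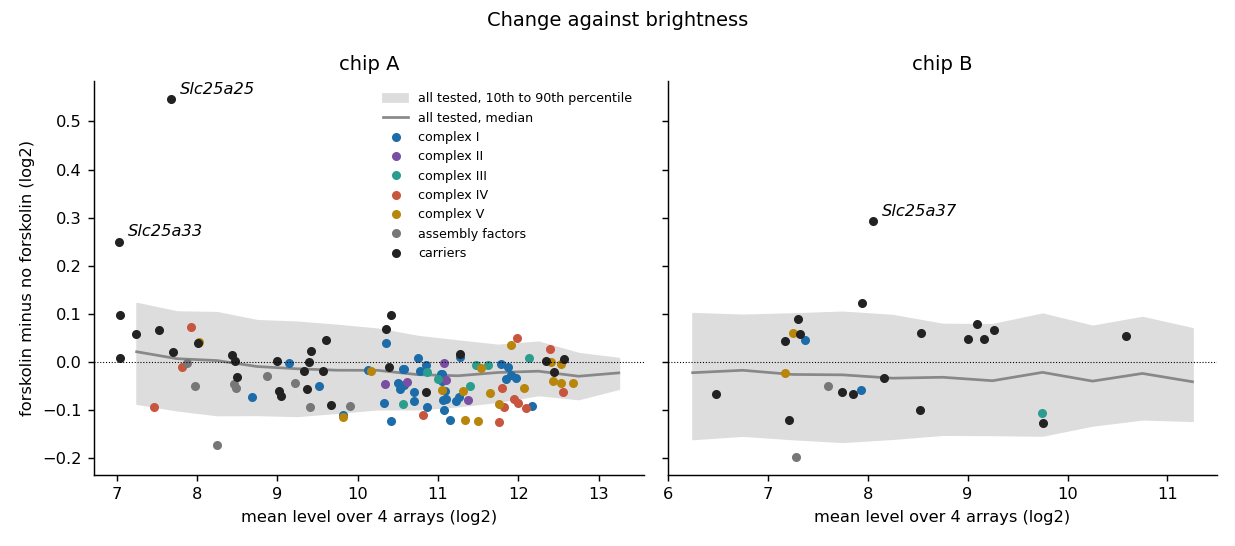
Forskolin minus no forskolin (log2) against the mean level over the 4 arrays (log2) for each tested member on chips A and B; the grey band spans the 10th to 90th percentile of all tested probe sets in steps of 0.5 in level, and the grey line is their median. On chip A the median drifts below 0 at high levels, where most of the chain lies, and Slc25a25 and Slc25a33 lie at the dim end above the band.

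Of the member genes, 14 were on both chips, and 17 had more than 1 tested probe set. The largest gap between tested probe sets of 1 gene was 0.16 (log2), for Atp5me. Of 22 genes with more than 1 probe set, tested or not, 14 had changes of the same sign on all of them. Among the rest, Atp5f1c measured -0.061 on chip A and 0.061 on chip B, and Ndufa7 -0.025 and 0.045. Of 84 chain probe sets on chip A, 72 lay in the brightest 25% of the chip, against 11 of 33 carriers. A probe set's brightness depends on its probes and is no measure of abundance between genes.

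Assembly factors named Ndufaf and Sdhaf, which help build complexes I and II, had 9 tested probe sets on chip A, with no call. All 9 lay below 0, against 55.0% of all tested probe sets on the chip. Their median was -0.050, against -0.0082 over all tested. They were not compared with others of their own brightness. Sdhaf2, which attaches the flavin to Sdha, was the lowest (named after its values were seen), at -0.17 (limma adjusted p = 0.0788, but 0.0445 with median centring). On chip B, Ndufaf1 measured -0.20 (0.977).

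Other genes of mitochondrial energy metabolism, from lists written with earlier results known, were mostly uncalled too. None of 21 tested genes of the citric acid cycle and pyruvate dehydrogenase was called (median -0.0088), with the kinase Pdk2 at -0.16 and Dlst at -0.07 (limma adjusted p = 0.0928 and 0.391). Among 16 electron carriers and coenzyme Q genes, Coq10b rose 2.60-fold (limma adjusted p = 4.06e-07) and the other 15 were not called; Coq5 measured -0.11. Among 21 assembly factors of complexes III to V, Cox14, which acts early in complex IV assembly, fell by 0.19 (log2, limma adjusted p = 0.0374) and Cox17, a copper chaperone, measured -0.11. The Cox14 call was lost without forskolin replicate 1, forskolin replicate 2 or no forskolin replicate 1 (0.0750, 0.140 and 0.122). None of 16 regulators of mitochondrial biogenesis was called, including the mitochondrial DNA factor Tfam (-0.13, 0.130) and the polymerase subunit Polg2 (-0.15); Ppargc1a, measured on chip B, gave -0.17 (0.996) and was named after its value was seen. None of 24 protein import genes (Tomm7 -0.13, Timm10 -0.13) and none of 10 uncoupling proteins, porins and related carriers (Vdac3 -0.11, Mtch2 -0.16) was called. The medians of these last 4 lists were -0.052, -0.047, -0.040 and -0.049, in the order given. Genes not tested on chip A were read on chip B, among them many of the biogenesis regulators, so a list median can mix the chips. Over all tested probe sets the median was -0.0082 on chip A and -0.026 on chip B.

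Short motifs were also counted in the promoter windows. The ETS core CGGAAG, read on both strands, occurred in 38 of 71 chain windows (53.5%) and 11 of 34 carrier windows (32.4%), against 17.4% of all windows. The Yy1 core AAGATGG occurred in 19 chain windows (26.8%) and 1 carrier window (2.94%), against 7.30% of all. The shorter site TGACG, which the full element contains on each strand, occurred in 32 chain windows (45.1%) and 10 carrier windows (29.4%) against 22.0% of all, and the full element in 5 of 115 (4.35%) against 1.91%. The palindromic site of Nrf1 occurred in 5 member windows, against 0.932% of all, and the Sp1 core GGGCGG in 30 chain windows (42.3%) and 25 carrier windows (73.5%), against 34.9%. Of the 5 members with the full element, Slc25a25 rose and Slc25a33 was called higher, a call lost when any of 3 arrays was left out, while Cox8a, Sdhb and Ndufb2 (-0.08, named after its value was seen) were not called. The shares were not tested and no binding was measured.

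As a check of treatment, the cyclic AMP response genes Fos, Nr4a1, Dusp1 and Sik1 rose on chip A by 2.57 to 4.03 (log2, each called by limma). Fos, Dusp1 and Sik1 have 2 probe sets each there, and only the brightest over all arrays was read, a choice that favours a rise. Fos, the highest of the 4, had a mean of 5.22 without forskolin, under the lowest level that the filter kept (7.02). It was therefore tested only because of its forskolin arrays. Of 14 chromaffin markers 12 were found. Th, Chgb, Scg2 and Phox2a lay at the 97.7th, 98.2nd, 99.4th and 99.0th percentiles of brightness. Gata2, Hand2, Chga, Gata3, Isl1 and Ddc lay at the 91.3rd, 80.6th, 75.3rd, 71.0th, 70.7th and 39.9th, while Dbh and Slc18a1 lay below the filter. Phox2a, Gata2 and Isl1 were called higher. Of markers for other cells, limma tested 3 for fibroblasts, 2 for glia, 3 for the adrenal cortex and 3 for blood or endothelium. None was called. Of 6 fibroblast markers, Col3a1 was bright (98.0th percentile), Col1a1 lay at the 69.6th and Dcn at the 45.2nd. Col1a2, Lum and Pdgfra lay below the filter. The 3 glial markers found ranged from the 27.0th (S100b) to the 39.1st percentile (Sox10). The 6 adrenal cortex markers found ranged from the 12.9th (Cyp11b1) to the 51.2nd (Nr5a1, on chip B). The 6 blood and endothelial markers found ranged from the 6.40th (Ptprc) to the 52.0th percentile (Hbb). Array medians ranged from 8.15 to 8.17 (chip A) and from 6.77 to 6.79 (chip B).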

How the data were processed

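Total RNA of 8 samples was measured, 4 arrays on each chip. The authors deposited 1 log2 value for each probe set on each array; the log base was inferred from the range. Neither the labels nor the file headers state the background correction, summary or scaling. Gene symbols come from GEO's annotation of the chips and RefSeq (GRCr8), with 12783 probe sets carrying 1 symbol, 312 several and 2771 none on chip A, and 7564, 100 and 7612 on chip B. By gene number, 12748 and 7524 matched RefSeq.

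Each chip was fitted alone, without further scaling since array medians lay within 0.1. Probe sets under the 30th percentile of mean linear value were left out, which kept 11106 of 15866 (chip A) and 10693 of 15276 (chip B), among them 116 of 127 and 25 of 26 members. Forskolin was compared with no forskolin by limma 3.58.1 in R 4.3.3 (eBayes with an intensity trend, two-sided), with Benjamini-Hochberg adjustment over every probe set tested on that chip. Calls are adjusted p under 0.05. The code was tested on simulated data. The number of arrays limits precision.

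Named members are the calls, the 4 genes of smallest p in each complex and the carriers on each chip (by brightest probe set), the 2 brightest probe sets of each on chip A, genes whose tested probe sets differ by over 0.3 (none did), and a panel of 16 subunits and carriers; of each other list, the calls and the 2 genes of smallest p. Members and lists were chosen with earlier results of these data known. Alternatives were median centring, quantile normalization, no filter or the 50th percentile, eBayes without a trend or robust, leaving out each array, a replicate block, 1 probe set a gene, and updated symbols.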

Additional observations from a re-analysis of the deposited data

How the results depend on the processing

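Replicate numbers are shared between groups, but the labels do not say that they mark a shared culture or day, and deviations of same-numbered arrays correlated at r = 0.0034 on chip A and 0.20 on chip B across probe sets. With a replicate block in the fit, 1 member was called higher on chip A, since Slc25a33 had an adjusted p of 0.112 (limma) while Slc25a25 stayed called, and 205 of all probe sets of chip A were called in place of 366. Slc25a25 was called under every alternative in which it was tested; a filter at the 50th percentile removed both carriers, which left 0 members called higher on chip A. Median centring gave 5 members called lower on chip A (Cox7b, Ndufb1, Atp5mf, Atp5po and Sdhaf2) and 577 probe sets called, and quantile normalization gave 1 member called lower and, on chip B, 30 probe sets called in place of 17. The Cox14 call was also lost without a trend (limma adjusted p = 0.0673), with no filter (0.0541) and with the block (0.0726). Leaving out each array in turn gave 1 to 2 members called higher on chip A, 11 to 94 probe sets called on chip B (94 and 46 without no forskolin replicates 1 and 2, 11 without forskolin replicate 2), and 0 to 8 chip B members with an interval inside 1.2-fold; the causes were not tested.

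Medians moved beyond the replicate spread as follows. On chip A, complex IV was -0.057 with no filter and -0.056 with quantile normalization, and complex V -0.016 with quantile normalization. On chip B, median centring gave -0.0045 for all tested probe sets and -9.0e-04 for the chain. No filter gave -0.057 for complex I and -0.040 for the chain, and quantile normalization 4.0e-04 for all tested probe sets, 0.074 for the carriers and 3.0e-04 for the chain. With each array left out in turn, chip A medians ranged from -0.057 to -0.023 for complex I, -0.089 to 0.010 for II, -0.057 to 0.011 for III, -0.093 to -0.051 for IV, -0.048 to -0.022 for V, -0.0086 to 0.022 for the carriers and -0.062 to -0.021 for the chain. On chip B they ranged from -0.019 to 0.050 for the carriers and -0.018 to 0.019 for the chain.

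Of 61 named probe sets, those that changed sign had no call before or after. With median centring, Atp5f1a was -0.0033 and Slc25a5 -0.0015. With quantile normalization, Atp5mc3 was 0.031, Ndufv1 0.0070, Sdhc 0.0088, Slc25a4 0.012, Slc25a5 -0.011, Uqcrc1 0.0042, Uqcrfs1 0.028 and, on chip B, Atp5po 3.0e-04. With each array left out in turn, Atp5f1a ranged from -0.015 to 0.016, Atp5mc3 from -0.037 to 0.028, Ndufv1 from -0.028 to 0.016, Sdha from -0.12 to 0.036, Sdhc from -0.016 to 0.010, a Sdhd probe set from -0.089 to 0.015, Slc25a3 from -0.0086 to 0.022, Slc25a5 from -0.0019 to 0.0062, Uqcr10 from -0.042 to 0.058, Uqcrc1 from -0.057 to 0.046, Uqcrc2 from -0.060 to 0.020, Uqcrfs1 from -0.022 to 0.011 and Atp5po on chip B from -0.084 to 0.040.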
